A study of Mus musculus with 198 samples.

Results

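The SoxE genes Sox8, Sox9 and Sox10 encode the E subgroup of the Sox family of transcription factors, which bind DNA through a high-mobility-group box. Their DNA methylation was examined in mouse cortex with 1 or both copies of Dnmt3a, the gene of a DNA methyltransferase that writes new methyl groups. The members were taken by name: 3 of the 34193 gene rows of the deposited table. The set was chosen by name with its mCA and mCG values in the 8 animals known, Sox9 having one of the largest falls in mCA of the table, so their differences between genotypes are given as a description without a test.

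The study profiled Dnmt3a heterozygous knockout (hKO) and wild-type (WT) C57BL/6J mice by whole-genome bisulfite sequencing, in which unmethylated cytosines are converted and methylated ones are not. Of its 198 samples, 8 were deep cortex libraries with a value per gene, and these are used here. They came from 8 mice aged 8 weeks, 4 hKO and 4 WT, with 2 males and 2 females per genotype. The WT animals are called 695 and 046-1 (males) and 651-3 and 047-2 (females). The hKO animals are called 694 and 046-2 (males) and 651-2 and 047-1 (females). The labels give tissue as dissected from littermates, and they do not describe the knockout allele further. Whole cortex holds neurons, glia and vessels, so a change in the share of cells of a type and a change in methylation per cell cannot be told apart. The table holds methylation and no expression, so the tissue label was not checked against marker genes.

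Sox9 takes part in the switch of neural progenitors to glial fates and remains active in astrocytes, and outside the brain it directs cartilage and testis formation. Sox10 drives oligodendrocyte differentiation and myelin genes, and in the neural crest it is needed for melanocytes, Schwann cells and enteric neurons. Sox8 is expressed in oligodendrocyte-lineage cells and overlaps in function with the other two. Methylation at CG sites (mCG) is found in all cell types, whereas methylation at CA sites (mCA) builds up mainly in neurons after birth and depends on Dnmt3a there. Genes active in a cell type tend to carry less of it there. In the results each level is the percentage of CA or CG cytosines of a gene called methylated in 1 library, and differences are in percentage points.

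To show CG sites as letters, the 250 bases before the Sox8 start are given from RefSeq (GRCm38.p6, chr17:25570687-25570936, minus strand), with each CG site in capitals and CA not marked. This stretch was not measured separately. A sequence was held for 1 of the 3 members.
Sox8: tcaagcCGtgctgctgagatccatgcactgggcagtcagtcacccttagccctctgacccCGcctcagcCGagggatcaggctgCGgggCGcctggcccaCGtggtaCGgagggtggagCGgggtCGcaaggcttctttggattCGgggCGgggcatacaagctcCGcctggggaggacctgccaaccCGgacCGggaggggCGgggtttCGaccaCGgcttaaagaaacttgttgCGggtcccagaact
It holds 18 CG sites against a median of 6 in the same window of 32851 promoters, and 21.7% of those windows hold at least as many. CA was counted on both strands, where it occurs 30 times against a median of 34. The motifs searched were the letters CG and CA.

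All 3 members had a value in each of the 8 libraries, as did 21302 genes for mCA and 21060 for mCG. The median gene had 2.07% mCA in WT and 1.15% in hKO cortex, 56.6% of the WT level, and 79.4% and 77.1% mCG, 97.2% of the WT level. The labelled coverage of the libraries was 6.4 to 7.8 genome equivalents. The number of cytosines behind each gene value is unknown, so no counting interval is given.

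Sox9 carried the highest mCA of the 3 genes in 8 of 8 libraries. In WT cortex its mCA was 7.46% in animal 695, 5.82% in 046-1, 11.6% in 651-3 and 4.32% in 047-2. In hKO cortex it was 3.52% in 694, 1.32% in 046-2, 2.70% in 651-2 and 2.31% in 047-1. Every hKO animal lay below every WT animal, and the WT animals spread over a wide range with 651-3 highest. Mean mCA of Sox9 was 7.30% ± 3.14 (SD, n = 4) in WT and 2.46% ± 0.910 (SD, n = 4) in hKO cortex. The difference of -4.84 points (SE 1.64) left 33.7% of the WT level. Without animal 651-3 the difference was -3.40 points and 42.0% was kept. Genes at this level were variable: the 55 genes with a WT mean within 10% of that of Sox9 had a median WT SD of 1.62. The WT SD of Sox9 exceeded that of 72.7% of them.

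Sox10 lay near the middle of all genes in mCA, and it and Sox8 were each the lowest of the 3 genes in 4 libraries. Its WT values were 2.52% in 695, 1.95% in 046-1, 2.80% in 651-3 and 1.43% in 047-2. Its hKO values were 0.918% in 694, 0.984% in 046-2, 1.42% in 651-2 and 0.755% in 047-1. The groups did not overlap, but the lowest WT animal (1.4254%) and the highest hKO animal (1.4223%) nearly met. The mean was 2.17% ± 0.609 (SD, n = 4) in WT and 1.02% ± 0.285 (SD, n = 4) in hKO cortex, a difference of -1.15 points (SE 0.336) with 46.9% of the WT level kept.

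Sox8 had overlapping groups. Its WT mCA was 1.33% in 695, 2.27% in 046-1, 3.34% in 651-3 and 0.690% in 047-2, and this last WT animal lay below all 4 hKO animals. The hKO values were 1.05% in 694, 0.972% in 046-2, 1.27% in 651-2 and 2.02% in 047-1. The mean was 1.91% ± 1.16 (SD, n = 4) in WT and 1.33% ± 0.479 (SD, n = 4) in hKO cortex. The difference of -0.582 points was smaller than its SE of 0.625, and it was -0.104 points without WT animal 651-3 and -0.989 points without WT animal 047-2. The WT spread of Sox8 was wide for its level: its SD exceeded that of 96.3% of the 1993 genes whose WT mean lay within 10% of its own, whose median SD was 0.320.

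These counts need the background of the table. By limma's moderated test with Benjamini-Hochberg adjustment, 72.1% of all genes were lower in hKO mCA at an adjusted p under 0.05 and 0.0329% (7 genes) were higher. In 64.6% of genes every hKO animal lay below every WT animal. Among the SoxE genes the groups did not overlap in 2 of 3, Sox9 and Sox10, and nothing is read from that count because this contrast entered their choice. The calls are of absolute level. After subtraction of each library's median, 5283 genes were called lower and 6523 higher, and after division by it 0 genes were called in either direction.

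**Figure D1:**
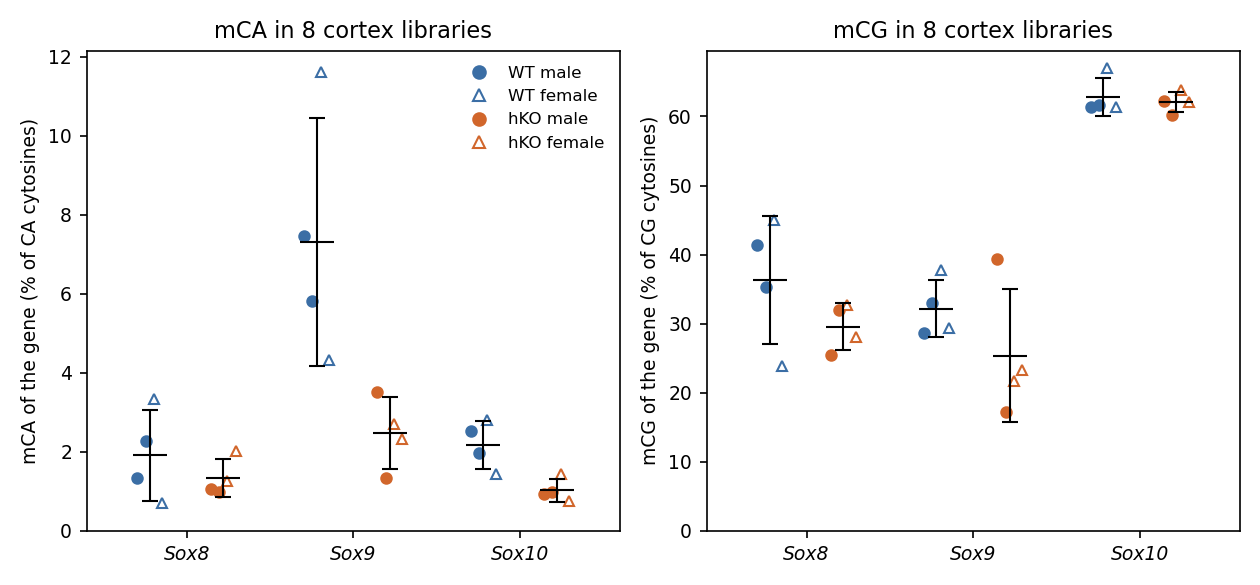
mCA (left) and mCG (right) of Sox8, Sox9 and Sox10 in percent, with 1 point per animal, circles for males and open triangles for females, and black bars for the mean ± SD of 4 animals. Sox9 has the highest mCA in each animal, and its WT animals sit between 4.32% and 11.6%, all above the hKO animals. Sox10 has the highest mCG.

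Division of each value by the median gene of its library takes out the fall that most genes share. Shares kept on this scale cannot be compared with the 33.7% of Sox9 above, where the median gene kept 56.6%. In WT cortex the mCA of Sox9 was 3.88, 3.03, 4.78 and 2.26 times the median gene in animals 695, 046-1, 651-3 and 047-2. In hKO cortex it was 3.17, 1.21, 2.04 and 2.29 times the median gene in 694, 046-2, 651-2 and 047-1. Sox9 therefore stood above the median gene in all 8 libraries, and on this scale the genotypes overlapped. The mean ratio was 3.49 ± 1.09 (SD, n = 4) in WT and 2.18 ± 0.807 (SD, n = 4) in hKO cortex, so that 62.4% was kept. The ratio of Sox10 was 1.06 ± 0.238 (SD, n = 4) in WT and 0.887 ± 0.140 (SD, n = 4) in hKO cortex, 84.0% kept. Sox8 was lower in hKO in points but higher on this scale, with a ratio of 0.903 ± 0.462 (SD, n = 4) in WT and 1.20 ± 0.536 (SD, n = 4) in hKO cortex. In hKO animal 047-1 the Sox8 ratio was 2.00, while in 694, 046-2 and 651-2 it was 0.945, 0.887 and 0.956, within the WT range of 0.361 to 1.38. The groups overlapped for both genes.

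By mean WT mCA, Sox9 ranked 50 of 21302 genes, Sox10 ranked 10106 and Sox8 ranked 11524. In hKO cortex the ranks were 1083, 11975 and 8846. The rank of Sox9 in single libraries ran from 11 to 8290. The fall of Sox9 in points was the 18th largest of all genes, a value known when the set was chosen by name. A smaller share was kept by 1.72% of genes.

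The CG context gave another order. Sox10 had the highest mCG of the 3 genes in 8 of 8 libraries, and Sox8 exceeded Sox9 in 6 of 8. In Sox10, mCG was 61.4%, 61.7%, 67.0% and 61.4% in WT animals 695, 046-1, 651-3 and 047-2, and 62.2%, 60.2%, 63.9% and 62.0% in hKO animals 694, 046-2, 651-2 and 047-1. The means were 62.8% ± 2.74 (SD, n = 4) and 62.1% ± 1.48 (SD, n = 4). The difference of -0.757 points (SE 1.56) was smaller than the spread between animals and became 0.613 points without WT animal 651-3.

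In Sox9, mCG was 28.6%, 33.0%, 37.7% and 29.3% in WT animals 695, 046-1, 651-3 and 047-2. It was 39.3%, 17.2%, 21.7% and 23.2% in hKO animals 694, 046-2, 651-2 and 047-1. Animal 694 was the highest of all 8 and the other hKO animals lay below every WT animal. The means were 32.2% ± 4.17 (SD, n = 4) in WT and 25.3% ± 9.66 (SD, n = 4) in hKO cortex, a difference of -6.82 points (SE 5.26) that became -11.5 points without 694 and -4.09 points without 046-2.

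In Sox8, mCG was 41.3%, 35.2%, 45.0% and 23.9% in WT animals 695, 046-1, 651-3 and 047-2, and 25.4%, 32.0%, 32.7% and 28.1% in hKO animals 694, 046-2, 651-2 and 047-1. The groups overlapped through WT animal 047-2, which was the lowest of all, as it was in mCA. The means were 36.4% ± 9.27 (SD, n = 4) and 29.5% ± 3.42 (SD, n = 4), a difference of -6.83 points (SE 4.94) that became -3.94 points without 651-3 and -11.0 points without 047-2. Over all genes limma called 0 of 21060 genes (0%) lower in hKO mCG, with 2195 genes at an unadjusted p under 0.05 in either direction. Every hKO animal lay below every WT animal in 4.94% of genes and in 0 of the 3 SoxE genes.

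Sox9 combined high mCA with low mCG. In mean WT mCG, Sox9 stood at percentile 2.08 of all genes, Sox8 at percentile 2.53 and Sox10 at percentile 9.48. Of 533 genes with WT mCG no higher than the 36.4% of Sox8, the median WT mCA was 0.984%, and by mCA Sox9 ranked 2 and Sox8 ranked 134 among them. Conversely, of the 21056 genes measured in both contexts, the 45 with WT mCA at least that of Sox9, itself included, had a median mCG of 81.7%. Per 100 units of mCG, Sox9 had 22.7 units of mCA in WT cortex (rank 29 of 21056) and 9.72 in hKO cortex. Sox8 had 5.25 and 4.49, Sox10 had 3.46 and 1.64, and the median gene had 2.77 and 1.58. These positions are descriptions of the same values that were known when the genes were chosen.

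**Figure D2:**
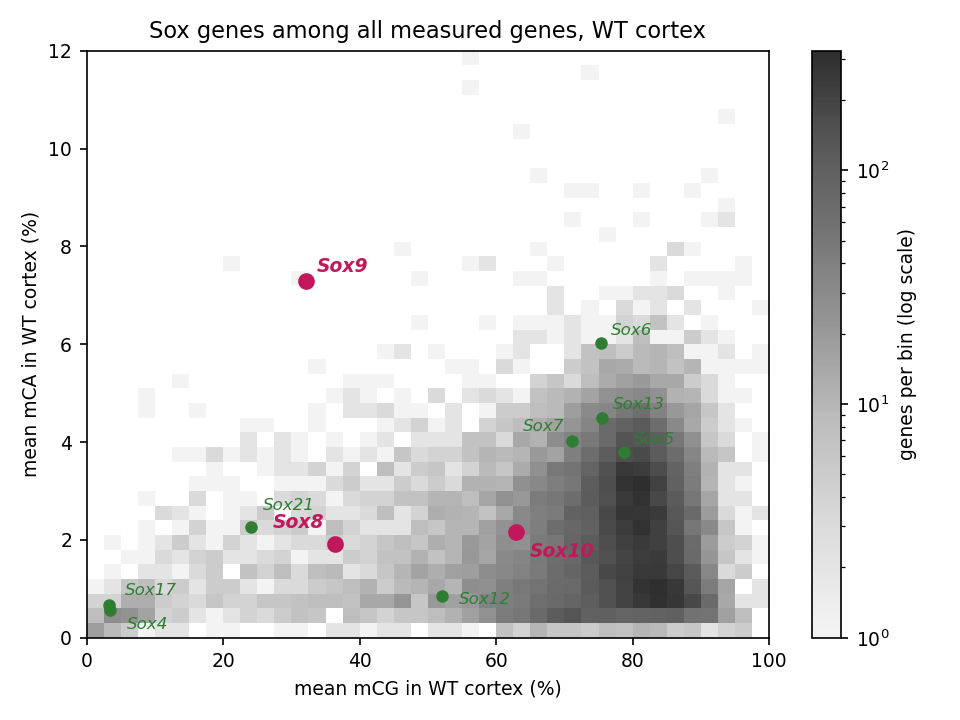
Mean mCA against mean mCG in WT cortex, both in percent. Grey bins count all genes measured in both contexts on a log colour scale, pink points are SoxE genes and green points are other Sox genes. Sox9 lies at 7.30% mCA and 32.2% mCG, where few genes fall, and 4 genes above 12% mCA are not drawn.

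The members also differed in their site content, taken as the authors' deposited density of methylated sites divided by the mean fraction. Sox9 had 12.3 CA sites per 100 bases, fewer than all but 0.847% of genes. Sox8 had 14.1 and Sox10 had 16.3, against a median of 15.3. Sox8 was rich in CG, with 4.57 sites per 100 bases (percentile 96.3). Sox9 had 3.07 and Sox10 had 2.74 CG sites per 100 bases, against a median of 2.04.

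Sex was not used in the choice of the genes and was tested in a separate fit on genotype and sex. The protocol of the 4 female libraries names a further sequencer, so sex and sequencer cannot be told apart here. Female minus male, with genotype in the model, the mCA of Sox9 differed by 0.703 points (SE 1.41, limma adjusted p = 0.795), from 4.53% ± 2.68 (SD, n = 4) in males to 5.23% ± 4.34 (SD, n = 4) in females, with the sign turning to -0.878 points without WT animal 651-3. For Sox8 the mCA difference was 0.423 points (SE 0.528, limma adjusted p = 0.697), and for Sox10 it was 0.00618 points (SE 0.312, limma adjusted p = 0.995). In mCG the differences were -1.09 points for Sox8 (SE 4.61), -1.54 points for Sox9 (SE 4.84) and 2.16 points for Sox10 (SE 1.85), with limma adjusted p of 0.864, 0.818 and 0.390. None of the 3 passed in either context. Over all genes, 0% passed for sex in mCA (1910 genes at an unadjusted p under 0.05) and 0.199% in mCG, where 7369 genes had an unadjusted p under 0.05. Within each genotype the library median mCG was higher in both females than in both males, at 82.2% and 79.8% against 78.2% and 77.3% in WT and 79.5% and 77.1% against 76.6% and 75.1% in hKO cortex.

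With both sexes together, the hKO mean lay below the WT mean in 97.1% of genes for mCA and 84.0% for mCG. Each sex held 2 animals per genotype. In points, without library scaling (which turns Sox8 mCA and Sox10 mCG), the genotype difference was negative in both sexes for all 3 genes. In mCA it was -4.22 points in males and -5.46 points in females for Sox9, -1.28 and -1.02 points for Sox10, and -0.792 and -0.373 points for Sox8. In mCG it was -2.58 and -11.1 points for Sox9, -9.57 and -4.09 points for Sox8, and -0.303 and -1.21 points for Sox10. No difference between the sexes in these values passed limma's interaction test, with an adjusted p of 1 for each in mCA and 0.99997 for each in mCG. The interaction had wide errors, such as an SE of 2.92 points for Sox9 mCA. Over all genes it passed in 0.00939% for mCA (2 genes) and 0% for mCG (647 genes at an unadjusted p under 0.05).

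Among 11 Sox genes measured in all libraries, Sox9 had the highest WT mCA, followed by Sox6 at 6.03%, Sox13 at 4.50%, Sox7 at 4.02% and Sox5 at 3.80%. Sox10 was seventh at 2.17% and Sox8 eighth at 1.91%, close to Sox21 at 2.26%. Sox12 at 0.858%, Sox17 at 0.667% and Sox4 at 0.572% closed the order. The WT values of Sox8, Sox10 and Sox21 (2.26% ± 1.21, SD, n = 4) overlapped, so their order is not larger than the spread between animals. The spread of Sox9 also covered Sox6 (6.03% ± 0.531, SD, n = 4), although their mCG differed, at 32.2% and 75.4% in WT cortex.

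Of the 8 other Sox genes measured, 3 were lower in hKO mCA and 5 did not pass, against 72.1% of all genes lower, and 0 were higher. Their median difference was -1.07 points against -0.907 over all genes. Sox6, a SoxD factor that partners Sox9 in cartilage, fell by 2.37 points (limma adjusted p = 0.000821) to 3.65%. Its fellow SoxD gene Sox13 fell by 1.88 points (limma adjusted p = 0.000712) to 2.61%. Divided by the library median, both had higher hKO means and did not pass (limma adjusted p = 0.866 and 0.960). Sox7, an endothelial SoxF factor, went from 4.02% ± 1.18 (SD, n = 4) to 2.90% ± 0.359 (SD, n = 4) and did not pass (limma adjusted p = 0.0803). It passed without WT animal 695 (limma adjusted p = 0.00557). It did not pass without WT animal 651-3 (limma adjusted p = 0.208) or with library medians subtracted (limma adjusted p = 0.718). These genes kept 60.6%, 58.1% and 72.0% of their WT level, above the 33.7% of Sox9, a comparison made without a test. Over the 8 other Sox genes the share kept ran from 39.2% (Sox17) to 97.3% (Sox4). The share of Sox9 ran from 28.9% to 42.0% with 1 animal left out, a range that holds the value of Sox17.

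**Figure D3:**
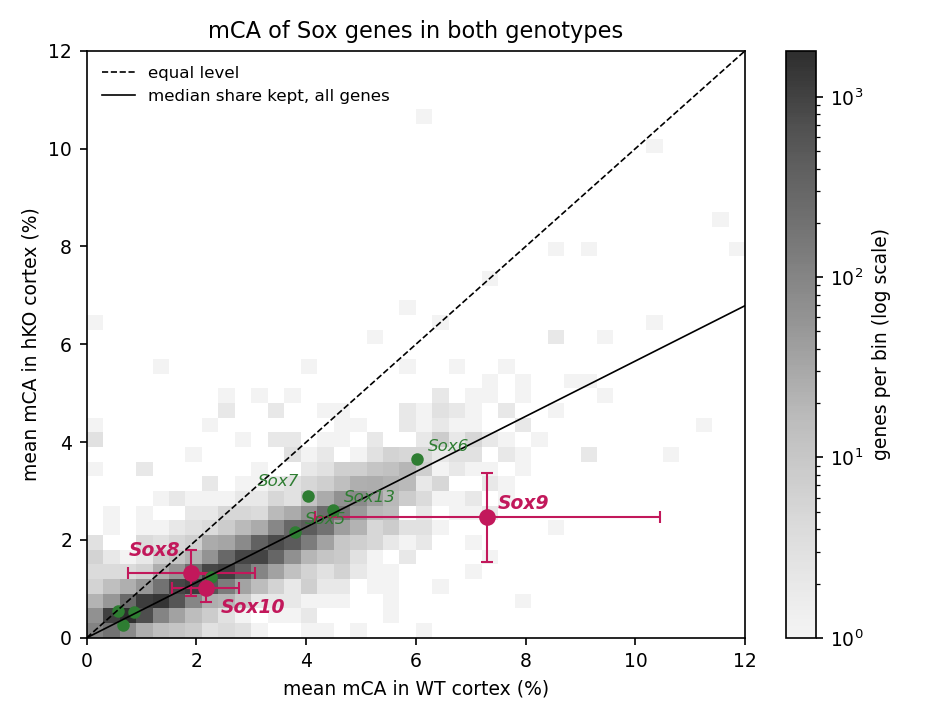
Mean mCA in hKO against WT cortex in percent. Grey bins count all genes on a log colour scale, pink points with bars are SoxE genes with the SD of 4 animals on each axis, and green points are other Sox genes. Most genes lie along the solid line, where 56.6% of the WT level is kept, Sox9 lies below it, and 6 genes beyond 12% on an axis are not drawn.

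Genes that work with SoxE factors or lie downstream of them were grouped in lists. Among 16 measured glial regulators, 11 were lower in hKO mCA, 0 were higher and 5 did not pass, against 72.1% of all genes lower. Their median difference was -0.782 points against -0.907 over all genes. Chd7, a chromatin remodeller that cooperates with Sox10, fell from 5.79% to 3.40% (limma adjusted p = 0.000725). Tcf7l2, a Wnt-pathway factor of maturing oligodendrocytes, fell from 5.50% to 3.14% (limma adjusted p = 0.000692). Nkx6-2, a homeobox factor of the oligodendrocyte lineage, was at 3.23% ± 2.70 (SD, n = 4) in WT and 4.88% ± 2.84 (SD, n = 4) in hKO cortex and did not pass (limma adjusted p = 0.360). Its difference of 1.64 points became 0.290 without hKO animal 047-1 and 2.75 without WT animal 651-3. The others that did not pass were Olig2, Nkx2-2, Zeb2 and Hes1. Of these, Olig2 and Hes1 also had higher hKO means. Olig2 was at 0.240% ± 0.481 (SD, n = 4) in WT and 2.00% ± 2.37 (SD, n = 4) in hKO cortex. Hes1 was at 1.22% ± 0.640 (SD, n = 4) and 1.72% ± 0.792 (SD, n = 4). A lower hKO mean was seen in 13 of the 16 genes, against 97.1% of all genes.

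Among 24 oligodendrocyte and myelin genes, which include targets of Sox10, 23 were lower and only Gjb1 did not pass, against 72.1% of all genes lower. The median difference was -1.33 points against -0.907 over all genes. Pmp22, a myelin protein gene, fell from 4.45% to 2.47% (limma adjusted p = 0.000979), Pdgfra, a receptor of oligodendrocyte precursors, fell from 4.35% to 2.42% (limma adjusted p = 0.000693), and Ermn, a cytoskeletal myelin gene, fell from 4.27% to 2.36% (limma adjusted p = 0.00107). Among 13 astrocyte genes 12 were lower and S100b did not pass, again against 72.1% of all genes, with a median difference of -1.61 points against -0.907. The gap junction genes Gjb6 and Gja1 fell from 5.05% to 3.07% and from 4.65% to 2.56%, and the glutamate transporter gene Slc1a3 fell from 4.52% to 2.51% (limma adjusted p = 0.000767, 0.000692 and 0.000692).

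Lists of SoxE functions outside the brain were counted in the same way. Among 12 cartilage and gonad genes 10 were lower and Comp and Ptgds did not pass, against 72.1% of all genes lower. Nr5a1, a gonadal nuclear receptor, fell from 4.50% to 2.23% (limma adjusted p = 0.000756) and Acan, the cartilage proteoglycan aggrecan, fell from 4.02% to 2.36% (limma adjusted p = 0.000927). Ptgds, a prostaglandin synthase gene, was at 4.46% ± 3.93 (SD, n = 4) in WT and 2.82% ± 1.03 (SD, n = 4) in hKO cortex (limma adjusted p = 0.378). Among 10 neural crest and melanocyte genes 9 were lower and 0 were higher, against the same 72.1%. Snai2, a crest transcription factor, fell from 4.94% to 1.43% (limma adjusted p = 0.00142), keeping 28.9%, and the receptor genes Kit and Ednrb fell from 4.30% to 2.41% and from 4.31% to 2.13% (limma adjusted p = 0.000692 for both). The median share kept was 58.5% for glial regulators, 55.4% for oligodendrocyte genes, 55.0% for astrocyte genes, 55.4% for cartilage and gonad genes and 56.1% for crest genes, against 56.6% over all genes. These falls are in points: after division by the library median 0 genes of any list were called and Chd7, Tcf7l2, Pmp22, Pdgfra, Gjb6, Acan and Kit were higher in hKO. No list gene was called in mCG, where 0 of 21060 genes were.

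The nearest measured genes on each side were used to see whether the level of a SoxE gene extended beyond it. The order of genes was read from the RefSeq table of GRCm38.p6, by name. Beside Sox9 lie 2 long noncoding RNA genes. BC006965 had 3.41% ± 0.458 (SD, n = 4) mCA in WT and 1.91% ± 0.203 (SD, n = 4) in hKO cortex, and Gm11681 had 3.56% ± 0.596 (SD, n = 4) and 2.22% ± 0.620 (SD, n = 4). Their WT means were under that of Sox9, and their mCG was 81.2% and 86.5% against 32.2% in Sox9. In WT, the lowest Sox9 animal (4.32%) lay above the highest BC006965 animal (4.03%) but below the highest Gm11681 animal (4.38%).

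Beside Sox8, with 3 unmeasured genes between, Sstr5, a somatostatin receptor gene, had 4.34% ± 0.441 (SD, n = 4) in WT and 2.07% ± 0.442 (SD, n = 4) in hKO cortex. On the other side, with 1 unmeasured gene between, Lmf1, a lipase maturation factor gene, had 2.79% ± 0.294 (SD, n = 4) and 1.52% ± 0.146 (SD, n = 4). Beside Sox10, Polr2f, an RNA polymerase II subunit gene, had 1.10% ± 0.272 (SD, n = 4) and 0.581% ± 0.0757 (SD, n = 4), and the noncoding Gm10863 had 3.07% ± 0.290 (SD, n = 4) and 1.68% ± 0.185 (SD, n = 4). All 6 neighbours were lower in hKO mCA, against 72.1% of all genes, with limma adjusted p from 0.000692 for Sstr5 and Gm10863 to 0.0120 for Polr2f. The neighbours kept 47.7% (Sstr5) to 62.3% (Gm11681) of their WT level. On division by the library median none of the 6 neighbours passed, and BC006965 and Gm11681 had higher hKO means. On subtraction of it Polr2f was higher and Gm11681 no longer passed (limma adjusted p = 0.342).

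**Figure D4:**
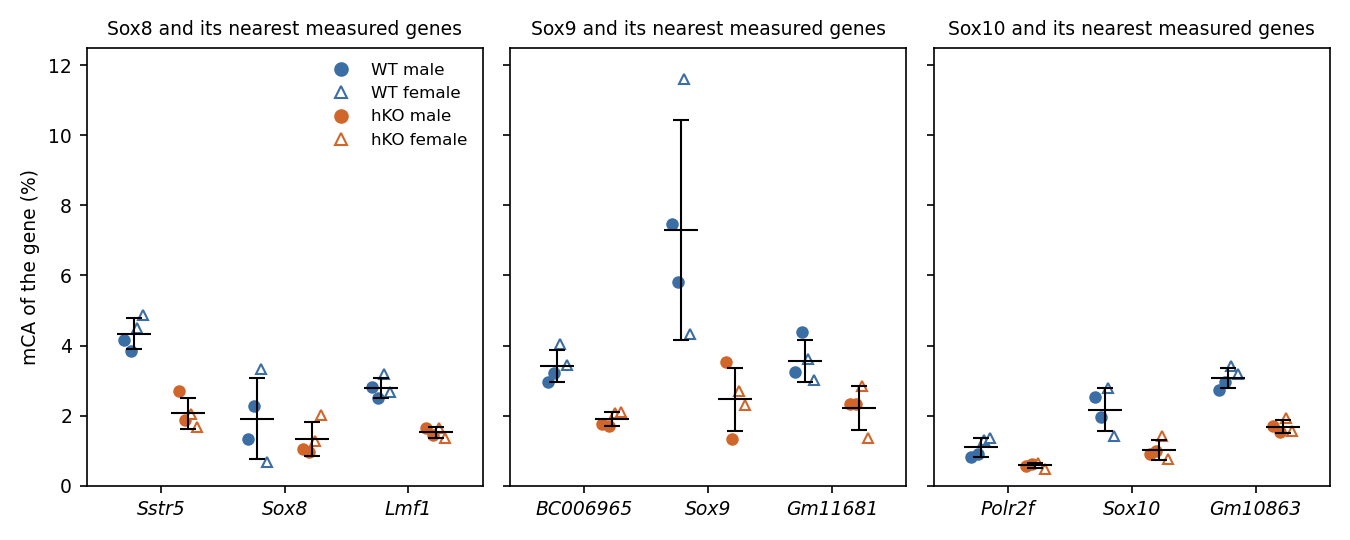
mCA in percent of each SoxE gene and its nearest measured gene on either side, with 1 point per animal, circles for males, open triangles for females and black bars for the mean ± SD of 4 animals. The WT animals of Sox9 reach 11.6%, while those of its neighbours stay at or below 4.38%.

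Genes most alike to each member were ranked by Pearson r of mCA over the 8 libraries, which includes the difference between genotypes that most genes share. For Sox9 they were Nfrkb (r = 0.996), Gm4109, Slc5a6, Cln3 and Rsbn1. For Sox10 they were Gm16596 (r = 0.997), Spred1, Csrp2bp, 9930111J21Rik1 and A430078I02Rik. For Sox8 they were Ssr2 (r = 0.977), Gm14710, Pex19, 4933426D04Rik and Ggcx. In mCG the leading genes were Tmem229a for Sox9 (r = 0.953), Zc3h8 for Sox10 (r = 0.987) and Asb9 for Sox8 (r = 0.987). These names were not stable: leaving out 1 animal kept 0 to 3 of the 5 mCA genes of Sox8, 1 to 3 of those of Sox9 and 0 to 4 of those of Sox10.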

How the data were processed

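Bisulfite libraries of 8 cortices were analysed. Per the submitters' processing notes, BS-Seeker2, bedtools and the mm9 genome were used. Versions, coverage filters and the part of each gene that was counted are not given in the sources used here. The authors deposited, per gene and library, the fraction of CA or CG cytosines called methylated, which was multiplied by 100 here. Site content was the authors' density of methylated sites (another deposited value) over the mean fraction. The 32614 enhancer rows and the shallow libraries, which have no gene values, were not used.

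Genes measured in all 8 libraries were fitted on the percent scale with limma 3.58.1 in R 4.3.3 (eBayes with trend, Benjamini-Hochberg adjustment over all genes, threshold 0.05). Genotype was tested in a model with genotype alone, sex in a model with both, and their interaction in a model that added it. Tables were made with pandas 2.3.3 and numpy 2.4.6, and figures with matplotlib 3.10.9, under Python 3.11.15. The fit was tested on simulated data. The members and lists were chosen with earlier results of these data known. Named genes were the members, the 3 genes of highest mean mCA per list, the nearest measured neighbours, and the 5 (mCA) or 3 (mCG) genes of highest r per member.

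In the table, 162 rows in 81 sets repeat another row's values, and in 79 pairs the shorter name begins the longer one. No SoxE row is among them (0). Sox3, Sox30, Amh and Sip1 (a symbol shared by 2 genes) were left out of the lists. The values of 1 further list gene, which is in the counts, are not reported here. Alternatives were a logit scale, library medians subtracted or divided out, genes in at least 3 libraries of each genotype, each animal left out, each sex alone, sex as covariate, a block by title number, medians, and, chosen after seeing the data, repeated rows left out.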

Additional observations from a re-analysis of the deposited data

Results flagged for a closer look

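The mCG of Sox10 in WT cortex had 1 animal apart from the other 3: 651-3 stood at 67.0%, and its gap to the nearest WT animal was 0.946 of the whole range, above Dixon's critical value for 4 samples. Chance flags about 1 in 20 groups, and 12 were looked at. The library of 651-3 also had the highest median mCG (82.2%) and mCA (2.43%) over genes of all 8 libraries. Library 651-2, of the same title number, had the highest medians in hKO cortex, at 79.5% and 1.32%. Divided by its library's median, the mCG of Sox10 was 0.815 in 651-3 and 0.769 to 0.798 in the other WT animals. The part of the library level in the result was not tested.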

How the results depend on the processing

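Library scaling moved the counts of genes and several signs. With the library median subtracted, 5283 genes were lower and 6523 higher in hKO mCA in place of 15369 and 7, and with it divided out 0 and 0. The difference of Sox8 mCA then turned from -0.582 to 0.329 (subtracted) and 0.467 points (divided), that of Sox9 became -2.09 (divided), and that of Sox10 became -0.243 and -0.269. Sox10 mCG turned from -0.757 to 1.53 and 1.08 points. On division, in points, Sox6 was at 0.443, Sox13 at 0.163, Sox7 at 0.969, Chd7 at 0.277, Tcf7l2 at 0.132, Pmp22 at 0.0413, Pdgfra at 0.0244, Gjb6 at 0.379, Ptgds at 0.358, Acan at 0.199, Kit at 0.0380, BC006965 at 0.0428 and Gm11681 at 0.278, none passing, and on subtraction Polr2f was at 0.396 (limma adjusted p = 0.0331). Ranges over the animals left out, in points, were -0.989 to -0.104 for Sox8 mCA, -5.83 to -3.40 for Sox9, -1.40 to -0.946 for Sox10, -11.0 to -3.94, -11.5 to -4.09 and -1.35 to 0.613 for the mCG of Sox8, Sox9 and Sox10, and -2.86 to 0.216 for Ptgds mCA.

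The sign of the sex differences of the SoxE genes turned under at least 1 alternative for each gene and context. Leaving out 1 animal moved them from -0.0652 to 0.996 (Sox8), -0.878 to 2.04 (Sox9) and -0.242 to 0.307 points (Sox10) in mCA and from -4.78 to 3.69 (Sox8) and -5.12 to 3.74 (Sox9) in mCG, while Sox10 mCG stayed positive, from 0.948 to 3.19, and turned with library scaling only. The interaction moved from -0.907 to 1.74, -4.88 to 2.41 and -0.423 to 0.948 in mCA and from -5.11 to 16.1, -19.6 to 2.59 and -3.71 to 1.90 in mCG, for Sox8, Sox9 and Sox10. For Sox10 the sex difference in mCA was -0.00945 on the logit scale, -0.149 with medians subtracted and -0.131 divided, and in mCG -0.692 and -0.129. The Sox9 mCA interaction was 0.0608 on the logit scale.

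Counts over all genes moved as follows. For sex in mCA, 0 lower and 0 higher became 6 and 8 (logit), 1 lower (subtracted), and 208 and 14 (divided). For sex in mCG, 4 lower and 38 higher became 1 and 22 (logit), 10 and 12 (subtracted), 12 and 15 (divided), and 7 lower with genes in 3 libraries of each genotype. For the interaction in mCA, 2 lower and 0 higher became 0 lower and 1 higher (logit), 0 lower (subtracted), 0 and 3 (divided) and 1 higher (genes in 3 libraries), and in mCG 1 and 1 (logit). Leaving out 1 animal gave 13543 to 16024 lower and 3 to 21 higher genes in hKO mCA, 0 to 1 each in mCG, 0 to 1 each for sex in mCA, 1 to 5 lower and 1 to 19 higher for sex in mCG, 1 to 15 lower and 0 to 11 higher for the interaction in mCA and 0 to 1 each in mCG. The cause of these changes was not tested.

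The labels do not say what the title numbers mark. Animals of 1 number are of 1 sex, and 694 and 695, whose titles have no such number, were taken as 1 block. Correlations of the deviations within these 4 pairs ran from 0.0369 to 0.120, all positive but not all over 0.1. The library medians placed the 4 pairs in the same order in both genotypes, in mCA and in mCG. Libraries 651-3 (WT) and 651-2 (hKO) were highest, at 2.43% and 1.32% mCA and 82.2% and 79.5% mCG. These values do not settle whether the animals are paired. The main fits and the SEs given treat them as unpaired. With a replicate block by number, 16635 genes were lower and 12 higher in mCA, and 0 were called in mCG. Leaving out repeated rows gave 15283 lower and 7 higher. The unknown number of cytosines per gene value limits the precision of all values here.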
